A study of Mus musculus with 2 samples.

Results

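The collagen gene family was examined in cells sorted for CD45, the phosphatase carried on the surface of leukocytes, from tumours of mice bearing AB1-HA, a mouse mesothelioma line. The members are the 44 genes of the 31053 measured features whose symbols have the form Col, a number, a and a number, each of which encodes 1 alpha chain of a collagen. Single-cell RNA-seq (10x Genomics 3-prime chemistry, version 3.1) gave 1 library from mice treated with a control antibody and 1 library from mice treated with an antibody against VEGF, the vascular growth factor. All animals carried the same tumour line. Strain, age, dose, time of treatment and the number of mice behind each library are not given in the sources used here. With 1 library per group there was no replicate check, the groups could not be tested against each other, and a difference is one between these 2 libraries.

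Collagens are proteins in which 3 alpha chains wind into a triple helix. Fibrillar chains (types I, II, III, V, XI, XXIV and XXVII) build the banded fibres of connective tissue, and type IV chains build the sheet of the basement membrane. FACIT chains (fibril-associated collagens with interrupted triple helices, among them XII, XIV and XVI) sit on the surface of fibrils, type VI chains form beaded filaments around cells, and types XV and XVIII are multiplexins, found at basement membranes. In tumours, fibroblasts and mesothelial cells are the usual sources of fibrillar chains, whereas leukocytes are known for taking up and degrading collagen.

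The family divides here into 11 fibrillar, 6 basement-membrane, 9 FACIT, 6 beaded-filament, 4 network and anchoring, 4 transmembrane, 2 multiplexin and 2 other chains. Chains were described in 2 groups of cells. Collagen-gated cells held at least 10 UMIs (molecular identifiers that each stand for 1 transcript molecule) of Col1a1, Col1a2 and Col3a1 together. Macrophage-marker cells held at least 2 UMIs of at least 5 of 9 macrophage markers, and cells that met both rules were counted as collagen-gated. Of the cells kept, 475 of 10805 in the control and 704 of 8159 with anti-VEGF were collagen-gated, and 5250 and 4317 were macrophage-marker cells. Median UMIs per cell were 47230 and 46155 in collagen-gated cells and 23020.5 and 24114 in macrophage-marker cells. Levels are CPM, the UMIs of a gene summed over the cells of a group and scaled to 1000000 UMIs of those cells. UMIs count the 3-prime ends of transcripts and were not scaled by gene length. The 95% intervals are exact and hold counting error alone.

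Promoter sequence is shown for 3 fibrillar chains that the results turn on, each the 250 bases before the RefSeq start on build GRCm38.p6, 5-prime to 3-prime, with matches on either strand to 3 promoter motifs in capitals. The motifs are spelled TATAAA for the first, known for binding the general transcription machinery, CCAAT for the second, known for binding nuclear factor Y, and GGGCGG for the third, known for binding Sp1. Col3a1 was the leading chain of collagen-gated cells (chr1:45311288-45311537, plus strand), Col5a1 is the partner of Col5a2 in type V collagen (chr2:27886175-27886424, plus strand), and Col27a1 was the fibrillar chain that reached its highest level outside the collagen-gated cells (chr4:63215162-63215411, plus strand).
Col3a1: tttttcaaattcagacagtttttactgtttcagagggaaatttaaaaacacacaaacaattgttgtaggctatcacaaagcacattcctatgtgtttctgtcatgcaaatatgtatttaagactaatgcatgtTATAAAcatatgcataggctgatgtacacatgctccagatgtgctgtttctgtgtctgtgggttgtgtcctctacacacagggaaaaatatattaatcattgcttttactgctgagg
Col5a1: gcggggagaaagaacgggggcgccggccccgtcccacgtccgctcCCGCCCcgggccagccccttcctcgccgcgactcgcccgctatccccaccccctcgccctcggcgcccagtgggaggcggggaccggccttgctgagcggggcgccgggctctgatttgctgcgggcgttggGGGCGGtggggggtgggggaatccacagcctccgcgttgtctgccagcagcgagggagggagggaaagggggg
Col27a1: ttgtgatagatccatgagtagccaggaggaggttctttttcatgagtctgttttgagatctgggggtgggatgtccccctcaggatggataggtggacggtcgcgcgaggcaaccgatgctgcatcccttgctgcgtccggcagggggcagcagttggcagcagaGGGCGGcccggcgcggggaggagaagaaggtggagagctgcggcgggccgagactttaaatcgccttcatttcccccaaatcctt
The Col3a1 window held 1 match to TATAAA, starting 117 bases before the start, and no match to GGGCGG, and its GC content was 35.2%. The Col5a1 window held 2 matches to GGGCGG, the nearer starting 73 bases before the start, at a GC content of 76.4%. The Col27a1 window held 1 match to GGGCGG, 85 bases before the start, at a GC content of 59.6%. RefSeq promoter windows were found for 35 of the 44 members (38 windows). GGGCGG occurred in 22 of the 38 (57.9%), against 32.7% of all 32817 promoter windows of that length, TATAAA in 5 (13.2%, against 12.4%) and CCAAT in 13 (34.2%, against 33.8%). Each motif was counted by itself, and a match describes letters only.

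Collagen-gated cells made up 4.40% (4.02 to 4.80) of cells in the control and 8.63% (8.03 to 9.26) with anti-VEGF. The gate is a raw count, and median UMIs of the cells kept were 18265 in the control and 22503 with anti-VEGF. With the gate in thinned cells, the difference between these shares was smaller, as given in the last section. The cells just inside the gate, with 10 to 19 UMIs of the gate genes, numbered 67 and 85, and those just outside it, with 5 to 9 UMIs, numbered 108 in each library. A Ptprc UMI, the transcript of CD45 itself, was found in 22.7% and 21.9% of collagen-gated cells, against 88.7% and 92.8% of macrophage-marker cells, although all cells had been sorted for CD45 protein. Of the 8 mesothelial or tumour markers, Msln, which encodes mesothelin, was found in 80.2% and 83.0% of collagen-gated cells, Krt8 in 17.5% of each library, and the other 6 in 2.41% of cells or fewer, with Lrrn4 at 0 in both libraries. Of the 8 fibroblast markers, Pdpn was found in 72.6% and 66.9%, Pdgfrb in 34.7% and 35.1%, Pdgfra in 31.4% and 33.7%, and Dcn, which encodes decorin, in 22.5% and 24.7%. The other 4, Dpt, Lum, Fap and Thy1, ranged from 1.26% to 13.4%. In macrophage-marker cells Pdpn was found in 57.0% and 75.2%, and every other fibroblast marker in 2.44% or fewer. The summed level of the 6 endothelial markers was 5.37 and 2.78 CPM and that of the 6 mural markers 11.5 and 18.4 CPM. The summed level of the 9 macrophage markers was 1107 and 1070.2 CPM. The 5 osteoclast-like markers summed to 904 and 946 CPM, with Acp5 found in 66.1% and 59.9% of cells, Ctsk in 69.1% and 67.3% and Mmp9 in 63.2% and 61.2%. The 6 neutrophil markers summed to 23.8 and 52.3 CPM, and to 1.42 and 34.7 CPM without cells that met the macrophage-marker rule. The part of these markers in the results was not tested. Several marker lists were thus found in these cells, and they are called here by their gate.

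In collagen-gated cells, 0.368% of all UMIs in the control and 0.338% with anti-VEGF were collagen UMIs (3684 and 3384 CPM). Per cell, that share ran from 0.0300% to 4.61% with a median of 0.238% in the control, and from 0.0249% to 8.30% with a median of 0.214% with anti-VEGF. Fibrillar chains made up 82.5% and 82.7% of collagen UMIs, beaded-filament chains 8.83% and 7.75%, basement-membrane chains 3.61% and 4.15%, network and anchoring chains 2.33% and 2.19%, and FACIT chains 1.37% and 1.80%. Multiplexins took 1.37% in each library, just above FACIT chains in the control and below them in the other library.

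Of the fibrillar chains, Col3a1, the chain of type III collagen, had 1694.5 CPM (1678 to 1711) in the control and 1569.8 CPM (1557 to 1583) with anti-VEGF. Col1a2 and Col1a1, the chains of type I collagen, stood at 679 and 415 CPM in the control and at 639 and 376 CPM with anti-VEGF. These 3 genes define the gate, so their high level is given as a description. Col3a1 was the most abundant chain of 79.2% and 74.3% of the cells, Col1a2 of 19.6% and 24.6% and Col1a1 of 2.95% and 1.14%. The assembled type I molecule contains more Col1a1 than Col1a2 chains, whereas 0.611 (0.596 to 0.627) Col1a1 UMIs were counted per Col1a2 UMI in the control and 0.588 (0.575 to 0.601) with anti-VEGF. How 3-prime capture differs between these transcripts was not tested. Of the other fibrillar chains, Col5a2, which helps to set fibril diameter, had 168 and 135 CPM, and Col5a1 45.4 and 48.1 CPM. Col5a3 and Col11a1 were at 18.8 and 13.1 CPM in the control and 17.7 and 9.15 CPM with anti-VEGF.

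**Figure D1:**
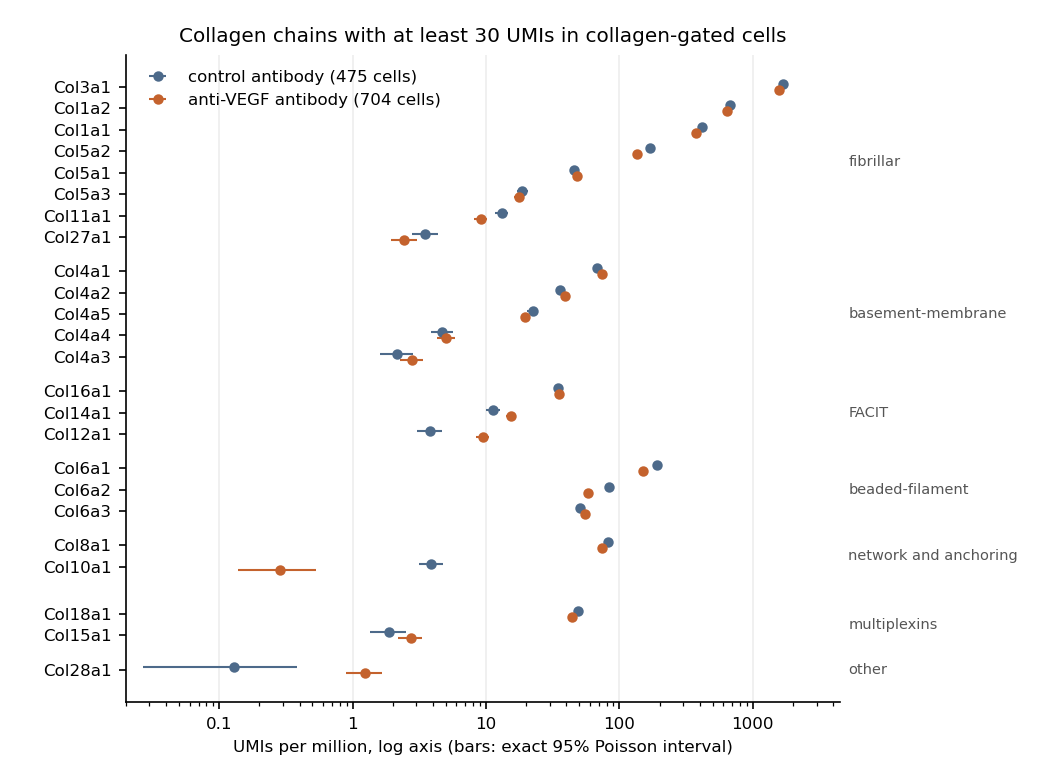
Level of each collagen chain with at least 30 UMIs over both libraries in collagen-gated cells, in CPM on a log axis, with 1 point per library (475 control and 704 anti-VEGF cells) and exact 95% Poisson intervals as bars. Col3a1, Col1a2 and Col1a1 lie highest in both libraries, and the points of the libraries lie apart mainly for Col12a1, Col10a1 and Col28a1.

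Type VI chains followed the fibrillar ones. Col6a1 had 192 CPM (186 to 198) in the control and 149 CPM (145 to 154) with anti-VEGF, Col6a2 82.8 and 57.8 CPM, and Col6a3 50.6 and 54.8 CPM. Of the other chains above 50 CPM, Col8a1, a short chain of network-forming type VIII collagen, had 81.8 and 73.7 CPM, and the basement-membrane chain Col4a1 68.2 and 74.0 CPM. Its partner Col4a2 had 35.7 and 38.9 CPM, and 1.91 Col4a1 UMIs were counted per Col4a2 UMI in the control and 1.90 with anti-VEGF. The genes lie head to head on chromosome 8 and overlap by 22 bases in GENCODE vM21 (Col4a1 from 11198423 to 11312826 on the minus strand, Col4a2 from 11312805 to 11449287 on the plus strand). The overlap is at their starts, away from the 3-prime ends where UMIs are counted. After thinning to 5000 UMIs per cell, 46.4% and 45.1% of collagen-gated cells with a Col4a2 UMI also held a Col4a1 UMI, against 23.7% and 22.9% of those without.

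Between the libraries, 24 of the 44 members reached 30 UMIs over both in collagen-gated cells, 14 had 1 to 29 UMIs and 6 had none. Those without a UMI were the FACIT chains Col9a1 and Col19a1, the type VI chains Col6a4 and Col6a5, the transmembrane chain Col25a1, and Col26a1. Among the low ones, Col17a1, the transmembrane chain of hemidesmosomes, had 26 UMIs, Col24a1 15 and Col2a1, the chain of cartilage fibrils, 2. Of the 24, 2 were at least 1.5-fold higher and 1 at least 1.5-fold lower with anti-VEGF. Across all 12465 features that passed the same filter, 4.55% were that much higher and 4.5% that much lower, 9.05% in all. The median log2 ratio of the 24 members was -0.09 and that of all features -0.08. Among the 8 fibrillar chains that passed, ratios ran from 0.695 for Col27a1 (0.506 to 0.954) to 1.06 for Col5a1 (0.980 to 1.15), with none past 1.5-fold. Col3a1 had a ratio of 0.926 (0.914 to 0.939), Col1a2 of 0.940 (0.921 to 0.960), Col1a1 of 0.904 (0.881 to 0.929) and Col11a1 of 0.697 (0.594 to 0.818). In the anti-VEGF library 5 cells held 28.0% of Col1a1 UMIs, against 9.79% in the control, and without the 5 richest cells of each library its log2 ratio was -0.48, against -0.14 with them. Col3a1, Col1a2 and Col1a1 set the gate, so their ratios within it are a description and carry no conclusion. The intervals of all chains leave out any spread between animals. Col6a1 and Col6a2 had ratios of 0.779 (0.748 to 0.811) and 0.699 (0.656 to 0.744), while Col6a3, the third chain of the type VI molecule, had 1.08 (1.01 to 1.17).

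The 3 members past 1.5-fold were low in level and came from few cells. Col12a1, a FACIT chain, had 87 UMIs in 38 control cells (3.77 CPM) and 328 UMIs in 89 anti-VEGF cells (9.41 CPM), a ratio of 2.50 (1.97 to 3.20). The 5 richest cells held 41.4% and 38.7% of these UMIs, and without them the log2 ratio was 1.38, against 1.32 with them. Col28a1, a chain with von Willebrand factor-type domains, had 3 UMIs in 3 cells and 43 UMIs in 13 cells, a ratio of 9.49 (3.04 to 47.8), and is named because it was past the threshold. Col10a1, known from hypertrophic cartilage, had 90 UMIs in 15 control cells, 86.7% of them in 5 cells, and 10 UMIs in 5 anti-VEGF cells, a ratio of 0.0736 (0.0341 to 0.142). Col28a1 and Col10a1 passed the filter through 1 library. The next highest ratios among members with at least 100 UMIs were 1.46 for Col15a1 (1.01 to 2.15), with 83.7% and 83.2% of its UMIs in 5 cells of each library, and 1.36 for Col14a1 (1.18 to 1.59). As the mean over cells, Col14a1 had a log2 ratio of -0.22.

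**Figure D2:**
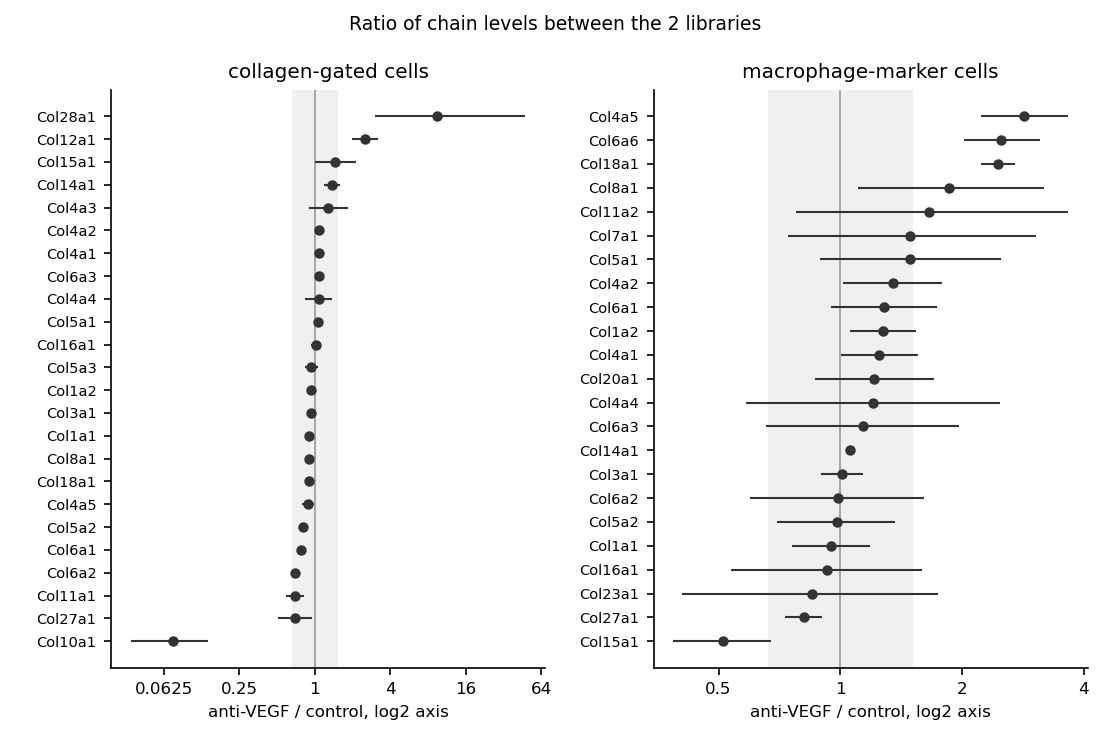
Ratio of the anti-VEGF to the control level for each chain with at least 30 UMIs over both libraries, on a log2 axis, in collagen-gated cells (left) and macrophage-marker cells (right), with exact 95% intervals as bars and ratios below 1.5-fold shaded. In collagen-gated cells 3 of 24 chains lie outside the shaded band, and in macrophage-marker cells 6 of 23.

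Of the collagen-gated cells, 14.9% and 14.8% also met the macrophage-marker rule. These cells had more UMIs, at medians of 72052 and 65705.5 against 45107.5 and 42238.5 in the others, and a Ptprc UMI in 88.7% and 88.5% against 11.1% and 10.3%. They held 79.4% and 73.7% of the Col14a1 UMIs of collagen-gated cells but 13.7% and 13.3% of the Col3a1 UMIs. Without them Col14a1 was at 2.95 and 5.22 CPM, and 4 of 24 members were past 1.5-fold on the higher side and 1 on the lower, where 4.05% and 4.91% of 11924 features were (8.97% in all). The higher ones were Col12a1, Col28a1, Col14a1 (ratio 1.77, 1.28 to 2.47) and Col15a1 (ratio 1.74, 1.15 to 2.71). Whether these cells are doublets was not tested.

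The remaining collagen-gated cells were divided by markers, with thresholds set after the values were seen. Cells with at least 10 Dcn UMIs (Dcn-high) numbered 38 and 64, or 8% (5.72 to 10.8) and 9.09% (7.07 to 11.5) of collagen-gated cells. Cells with fewer Dcn UMIs and at least 5 Msln UMIs (Msln-high) numbered 157 and 240, and 209 and 296 cells met neither rule. Collagen took 1.13% of UMIs in Dcn-high cells of each library and 0.213% and 0.222% in Msln-high cells. Col3a1 was at 5025 and 4797 CPM in Dcn-high and at 901 and 1016 CPM in Msln-high cells. The balance of chains was described by UMI ratios. Per Col1a2 UMI there were 0.852 (0.804 to 0.903) and 1.01 (0.969 to 1.04) Col1a1 UMIs in Dcn-high cells, against 0.497 (0.472 to 0.523) and 0.409 (0.391 to 0.428) in Msln-high cells. The intervals of these groups did not overlap in either library. They pool the UMIs of all cells of a group and leave out the spread between cells, so this gives no support for a difference. Dcn-high cells held 48.3% and 51.5% of the Col12a1 UMIs, 38 of the 43 Col28a1 UMIs of the anti-VEGF library and 62 of the 90 Col10a1 UMIs of the control library. Col12a1 was higher with anti-VEGF in each of the 3 groups, at 29.4 against 63.8 CPM in Dcn-high, 1.01 against 2.72 CPM in Msln-high and 4.17 against 10.2 CPM in the other cells, the first of each pair being the control. Col1a1 did not keep 1 direction, with ratios of 1.37 (1.30 to 1.44), 0.826 (0.780 to 0.874) and 0.564 (0.539 to 0.591) in the same order of groups.

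Col4a5 stood at 82.6 CPM in Dcn-high cells of the control and 44.5 CPM in those of the anti-VEGF library, a ratio of 0.539 (0.414 to 0.702), and at 15.1 and 16.0 CPM in Msln-high cells.

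A further split was made on Car9, a carbonic anhydrase gene induced by hypoxia, in collagen-gated cells without macrophage markers. A Car9 UMI was found in 32.7% of them in the control and 62.2% with anti-VEGF. Col3a1 was at 1646 CPM in cells with and 1955 CPM in cells without a Car9 UMI in the control, and at 1314 and 2565 CPM with anti-VEGF. Col1a1 was likewise at 315 and 532 CPM in the control and at 257 and 727 CPM with anti-VEGF. Both chains were thus lower in Car9-positive cells of each library, with median UMIs per cell of 48737.5 and 41594.5 in the control and 44387 and 38401 with anti-VEGF. The part of this share in the difference between libraries was not tested.

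**Figure D3:**
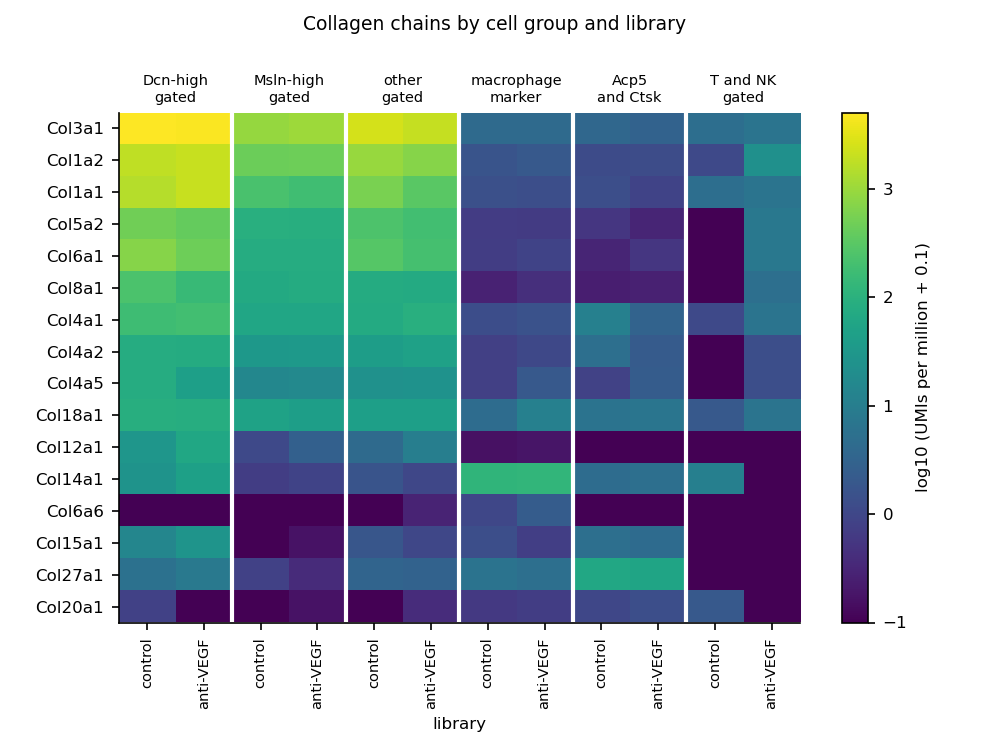
Level of 16 collagen chains, as log10 of CPM plus 0.1, in 6 groups of cells and both libraries, where the darkest colour stands for no UMI. Fibrillar, type VI and type IV chains other than Col27a1 and Col6a6 lie highest in the 3 groups of collagen-gated cells. Col14a1 and Col6a6 lie highest in macrophage-marker cells and Col27a1 in cells with Acp5 and Ctsk.

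Chains varied together across collagen-gated cells. Over 385 control and 589 anti-VEGF cells without macrophage markers, each thinned to 5000 UMIs, the lower of the libraries' Pearson correlations of log counts was computed for the 120 pairs of 16 chains with at least 10 CPM. It ran from -0.05 to 0.62 with a median of 0.17. The highest values were for Col3a1 with Col1a1 (0.67 in the control and 0.62 with anti-VEGF), Col1a2 with Col1a1 (0.67 and 0.61) and Col6a1 with Col6a2 (0.72 and 0.61). Col6a2 with Col1a1 stood at 0.62 and 0.59. Col4a1 with Col4a2 was at 0.32 and 0.37, and Col18a1 with Col3a1 at 0.02 and 0.20. The main fibrillar and type VI chains had the highest values with each other. Other chains had lower values with Col3a1, at 0.23 and 0.14 for Col8a1, 0.11 and 0.25 for Col14a1 and 0.09 and 0.25 for Col16a1. The cells of a library share that library, and the gate was set on Col1a1, Col1a2 and Col3a1, so these values are a description.

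Of the genes outside the family, those most correlated with the sum of Col1a1, Col1a2, Col3a1, Col5a1 and Col5a2 were Bgn (0.66 and 0.54), Sparc (0.57 and 0.52) and Aspn (0.56 and 0.52). Bgn and Aspn encode the small leucine-rich proteoglycans biglycan and asporin, and Sparc a collagen-binding matricellular protein. Ifitm3, Serpinf1, Ifitm2, Fn1, which encodes fibronectin, Islr, Spon2 and Itm2b followed, with values of 0.42 to 0.48 in the library where each was lower.

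**Figure D4:**
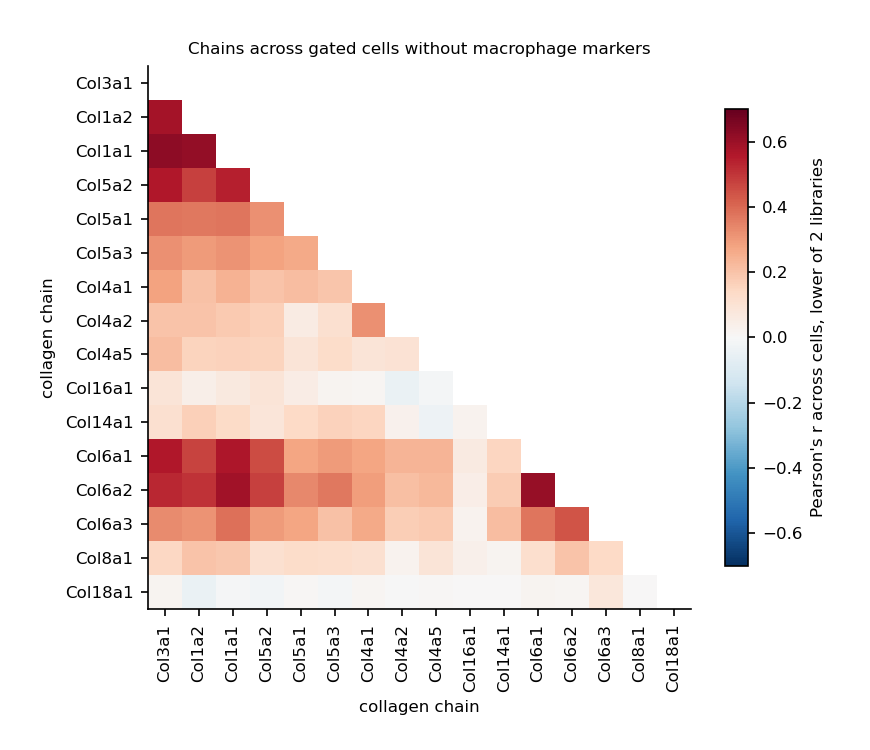
Pearson correlation of log counts between collagen chains across collagen-gated cells without macrophage markers, thinned to 5000 UMIs, where each square gives the lower of the values of the 2 libraries. Squares among Col3a1, Col1a1, Col1a2, Col5a2, Col6a1 and Col6a2 are darkest, and the row of Col18a1 is near 0.

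In macrophage-marker cells collagen was a far smaller share, 0.0143% of UMIs in the control and 0.0159% with anti-VEGF, and its make-up was different. Col14a1, a FACIT chain (ENSMUSG00000022371, chromosome 15, 55307750 to 55520803, plus strand, build GRCm38), made up 81.8% and 78.0% of collagen UMIs there. It had 16277 UMIs in the control and 15196 UMIs with anti-VEGF, which is 117 CPM (116 to 119) and 124 CPM (122 to 126). Macrophage-marker cells held 92.8% and 91.2% of all Col14a1 UMIs of their library. After thinning to 5000 UMIs, 40.1% and 41.0% of these cells held a Col14a1 UMI, and without thinning 72.8% and 76.5% did. In T and NK cells, taken as cells that should lack the gene (105 control and 67 anti-VEGF cells, chosen after the values were seen), Col14a1 had 11 UMIs, 10.7 CPM (5.32 to 19.1), and 0 UMIs, which allows up to 3.77 CPM. Median UMIs in T and NK cells were 7779 and 8596. Msln-high cells had 0.606 and 0.766 CPM of Col14a1. They do not stand for all collagen-gated cells, as the 38 and 64 Dcn-high cells held 14.1% and 22.6% of the Col14a1 UMIs of collagen-gated cells. The ratio between libraries was 1.06 (1.04 to 1.08) in macrophage-marker cells.

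The fibrillar chains of the gate were set against T and NK cells, where each rested on few UMIs. Col3a1 had 4.15 and 4.19 CPM in macrophage-marker cells and 4.84 (1.57 to 11.3) and 6.28 CPM (2.04 to 14.7) in T and NK cells. Whether its counts in macrophage-marker cells are background was not tested. Col1a1 was at 1.32 and 1.25 CPM in macrophage-marker cells and had 5 UMIs in T and NK cells of each library. Col1a2 was at 1.54 and 1.96 CPM, against 0.969 and 22.6 CPM (1 and 18 UMIs) in T and NK cells. Col27a1, also a fibrillar chain, was at 6.17 and 5.01 CPM in macrophage-marker cells and had no UMI in T and NK cells, which allows up to 2.91 and 3.77 CPM. Levels were also set against Col3a1 of the same cells. Per Col3a1 UMI, Col1a2 was at 0.927 and 1.15 times its proportion in collagen-gated cells and Col1a1 at 1.30 and 1.25 times. Col4a1 was at 6.98 and 7.36 times, Col4a5 at 12.4 and 36.6 times, Col18a1 at 37.7 and 94.4 times, and Col27a1 at 718 and 769 times. Col3a1 is a gate gene, and cells rich in the gate genes were kept out of the macrophage-marker group. That rule by itself raises such multiples for chains outside the gate, so they do not tell a chain from background. Among members with at least 30 UMIs in macrophage-marker cells, 8 had a share of collagen UMIs there at least 3 times that in collagen-gated cells in both libraries. These were Col14a1, Col27a1, Col6a6, Col15a1, Col20a1, Col7a1, Col23a1 and Col11a2. The gate acts on these shares in the same way, so the list of 8 chains is a description. Collagen itself was a far smaller share of UMIs in macrophage-marker cells, so a higher share of collagen UMIs is not a higher level.

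Several of these chains were rare. Col6a6, a type VI chain, had 126 UMIs (0.908 CPM) in 102 control cells and 278 UMIs (2.27 CPM) in 207 anti-VEGF cells, and macrophage-marker cells held 96.9% and 97.2% of its UMIs. Col6a6 was at 0 in T and NK cells, in cells with Acp5 and Ctsk, and in Dcn-high and Msln-high cells of both libraries. In T and NK cells that allows up to 2.91 and 3.77 CPM, more than the level in macrophage-marker cells, so it does not separate the groups. In cells with Acp5 and Ctsk it allows up to 0.0859 and 0.124 CPM. Dcn-high cells held only 1429047 UMIs in the control, so a low level could be missed there. Col20a1 had 71 and 76 UMIs, and Col7a1, Col23a1 and Col11a2 between 13 and 21 UMIs in each library. Counts of that size leave wide intervals between the libraries.

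Between the libraries, 23 of the 44 members reached 30 UMIs in macrophage-marker cells, 16 had 1 to 29 UMIs and 5 had none (Col9a1, Col13a1, Col24a1, Col28a1 and Col6a5). Of the 23, 5 were at least 1.5-fold higher and 1 at least 1.5-fold lower with anti-VEGF, where 5.82% of 13962 features were that much higher and 7.41% that much lower (13.2% in all). The median log2 ratio was 0.28 for the members and -0.11 for all features. Col18a1, whose C-terminal fragment is endostatin, had 624 UMIs in 441 control cells (4.50 CPM, 4.15 to 4.86) and 1349 UMIs in 884 anti-VEGF cells (11.03 CPM, 10.5 to 11.6), a ratio of 2.45 (2.23 to 2.70). After thinning, a Col18a1 UMI was found in 2.10% of control and 5.16% of anti-VEGF cells. T and NK cells held 2 and 5 Col18a1 UMIs, and the interval of the latter (2.04 to 14.7 CPM) included the level of macrophage-marker cells. Col4a5, a basement-membrane chain, had 94 and 236 UMIs, a ratio of 2.85 (2.23 to 3.66), and Col6a6 had a ratio of 2.50 (2.02 to 3.12). Col4a5 UMIs were spread over 82 and 192 cells, of which the 5 richest held 12.8% and 7.20%.

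The other calls rested on fewer counts. Col8a1 (25 and 41 UMIs) had a ratio of 1.86 (1.11 to 3.19) and Col11a2 (13 and 19 UMIs) of 1.66 (0.777 to 3.65). Per Col3a1 UMI, Col8a1 was at 0.900 and 1.70 times its proportion in collagen-gated cells. Whether the Col8a1 UMIs are background was not tested. Col15a1 was lower, with 173 UMIs in 159 cells and 78 UMIs in 74 cells, a ratio of 0.512 (0.386 to 0.672). Col27a1 had a ratio of 0.812 (0.731 to 0.901) and Col1a1 of 0.949 (0.760 to 1.18), which turned to a log2 ratio of 0.03 under TMM scaling. Where each cell was given the same weight, as the mean over cells of the CPM of each cell, 3 members were higher and 6 lower, the median log2 ratio was -0.27, and Col8a1 and Col11a2 had log2 ratios of -0.02 and -0.38. In that setting Col18a1, Col4a5 and Col6a6 stayed past 1.5-fold. Cells under 5000 UMIs, which weigh more there, numbered 481 in the control and 96 with anti-VEGF. The summed level of the 6 neutrophil markers in macrophage-marker cells was 60.3 CPM in the control and 195 CPM with anti-VEGF, none of the 6 at 0, that of the 9 macrophage markers 12749 and 10252 CPM, and that of the 4 red cell markers 15.3 and 0.376 CPM. The part of any of them in these ratios was not tested.

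Col27a1 was highest in a group of cells with at least 20 UMIs each of Acp5 and Ctsk, genes of osteoclasts that encode tartrate-resistant acid phosphatase and the collagen-degrading protease cathepsin K. This group was defined after the values were seen and does not overlap the macrophage-marker group. In its 1274 control and 750 anti-VEGF cells, Col27a1 was at 66.4 CPM (63.7 to 69.2) and 54.9 CPM (52.0 to 58.0), against 6.17 and 5.01 CPM in macrophage-marker and 3.51 and 2.44 CPM in collagen-gated cells. It made up 61.0% and 63.1% of collagen UMIs there, and 25.5% and 22.2% of thinned cells held a UMI. No Col27a1 UMI was found in T and NK cells of either library. The ratio between libraries was 0.827 (0.772 to 0.885). Col4a5 in the same cells was at 0.745 and 2.26 CPM, a ratio of 3.04 (1.87 to 5.05), and Col18a1 at 6.19 and 6.75 CPM, a ratio of 1.09 (0.885 to 1.34). Col4a1 and Col4a2 were at 11.03 and 5.16 CPM in control cells of this group, but 5 cells held nearly all of those UMIs.

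The enzymes that make collagen were followed with a list of 37 genes, of which 33 reached 30 UMIs in collagen-gated cells. In the anti-VEGF library 7 were at least 1.5-fold higher and 2 at least 1.5-fold lower, against 4.55% and 4.5% of all features. The median log2 ratio of the list was -0.05, against -0.08 for all features. Of the 7, Adamts2 had 23 UMIs in the control and reached the filter with those of the anti-VEGF library. Proline hydroxylation stabilises the triple helix, and P4ha1 and P4ha2, catalytic subunits of prolyl 4-hydroxylase, went from 174 to 269 CPM (ratio 1.55, 1.49 to 1.61) and from 9.40 to 28.3 CPM (ratio 3.01, 2.60 to 3.50). Plod1, a lysyl hydroxylase, had a ratio of 1.64 (1.53 to 1.75) and Lox, the lysyl oxidase that cross-links fibrils, of 2.75 (2.19 to 3.48). Adamts2, which removes the N-terminal propeptide, had a ratio of 2.62 (1.64 to 4.34), Creb3l1, a transcription factor of secretory cells, 2.01 (1.33 to 3.09) and Pcolce2, an enhancer of C-terminal processing, 1.74 (1.37 to 2.23). Bmp1, the C-terminal proteinase, was lower at 0.630 (0.569 to 0.697), as was Adamts14 at 0.481 (0.354 to 0.651). The other 24 genes that passed lay between 0.689 for Fkbp14 (0.533 to 0.891) and 1.37 for Plod2.

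**Figure D5:**
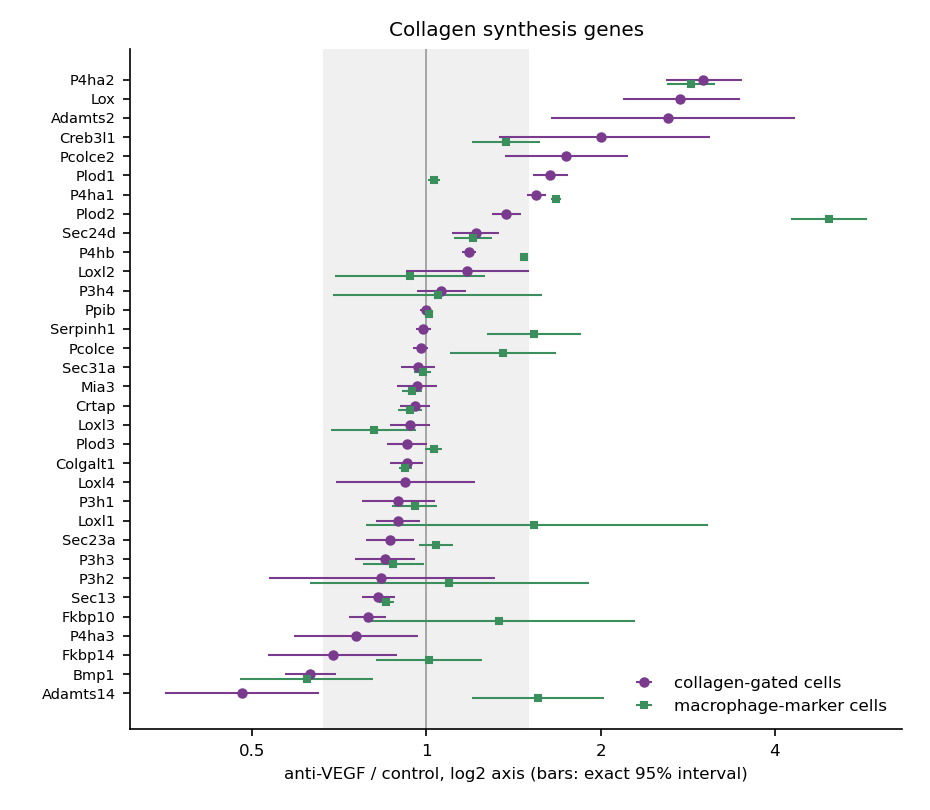
Ratio of the anti-VEGF to the control level for 33 collagen synthesis genes in collagen-gated cells (circles) and, where they reached 30 UMIs, in macrophage-marker cells (squares), on a log2 axis with exact 95% intervals as bars and ratios below 1.5-fold shaded. P4ha1 and P4ha2 lie on the higher side in both groups of cells, Bmp1 on the lower side in both, and Adamts14 on opposite sides.

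In macrophage-marker cells 28 genes of the list passed the filter, 6 higher and 1 lower, where 5.82% of all features were higher and 7.41% lower. P4ha1 had a ratio of 1.67 (1.64 to 1.71), P4ha2 of 2.86 (2.60 to 3.15) and Plod2, the lysyl hydroxylase of telopeptides, of 4.96 (4.27 to 5.77). Serpinh1, a collagen chaperone, had a ratio of 1.53 (1.27 to 1.85), Adamts14 of 1.56 (1.20 to 2.03) and Loxl1 of 1.54 (0.785 to 3.06), while Bmp1 had 0.623 (0.476 to 0.810).

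Proteins that bind collagen fibrils were followed with 25 genes, of which 23 passed the filter in collagen-gated cells, 8 higher and 3 lower, where 4.55% and 4.5% of all features were. The median log2 ratio was 0.24, against -0.08 for all features. Cthrc1, Prelp, Tnxb and Fbln1 had 3, 11, 28 and 20 UMIs in the control and reached the filter with those of the anti-VEGF library. Cthrc1 and Prelp could pass it only with a higher level in that library. The count and median therefore give no support. Cthrc1, which encodes a secreted protein with a short collagen-like stretch, had 3 UMIs in the control and 253 with anti-VEGF, a ratio of 55.8 (18.9 to 273). Prelp had a ratio of 5.54 (2.95 to 11.5), Tnxb of 4.35 (2.91 to 6.73), Tnc, which encodes tenascin C, of 2.31 (1.84 to 2.94) and Thbs1 of 2.24 (2.07 to 2.42). Fbln1 at 2.18 (1.31 to 3.81), Postn at 1.72, at 10.3 and 17.7 CPM, and Thbs2 at 1.62 (1.56 to 1.69) were the other higher members. Eln, which encodes elastin, Mfap4 and Fbln5 were lower, at 0.344 (0.296 to 0.399), 0.481 (0.432 to 0.535) and 0.613 (0.561 to 0.671). None of the 10 collagen receptor, 7 collagen-degrading protease and 12 basement-membrane partner genes that passed was past 1.5-fold in collagen-gated cells. In macrophage-marker cells 1 of the 7 protease genes that passed was higher and 1 lower, where 5.82% of all features were higher and 7.41% lower. Mmp13, a collagenase gene, had 2.85 and 8.76 CPM (ratio 3.07, 2.73 to 3.45), and Fap, which encodes fibroblast activation protein, 0.720 and 0.245 CPM (ratio 0.340, 0.218 to 0.516). Of the 18 fibril partners that passed there, 9 were higher and 1 lower, with Thbs2 at a ratio of 4.36 (3.38 to 5.68) and Lum at 0.594 (0.259 to 1.29). Of the 9, Vcan was at 6.96 and 14.8 CPM. The others were at 1.90 CPM or less in the control and at 4.04 CPM or less with anti-VEGF. A gene without a UMI in T and NK cells could be at up to 2.91 and 3.77 CPM. Whether the low levels are background was not tested. Of the 9 basement-membrane partners, 2 were higher and 1 lower, and none of the 9 collagen receptor genes was past 1.5-fold.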

How the data were processed

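Single cells sorted for CD45 from AB1-HA tumours were profiled in 1 control-antibody and 1 anti-VEGF library. The authors deposited unnormalised UMI counts for each gene in each barcode. Cell Ranger 3.0.2 and build mm10 were used, per the submitters' processing notes. The file headers name software version 3.1.0, and the sources used here do not say how strand was handled. The libraries held 11687 and 8825 barcodes with 233687412 and 213948867 UMIs, and 35 barcode sequences occurred in both and were kept apart.

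Cells with at least 300 genes, 500 UMIs and at most 10% mitochondrial UMIs were kept (92.5% in each library). No doublet caller was run. UMIs were summed per cell group and divided by the group's total. Exact Poisson, conditional binomial and Clopper-Pearson intervals at 95% cover counting error only, since PCR and cell-to-cell variation add to it. Ratios need at least 30 UMIs over both libraries. With 1 library per group no test between groups was possible. Shares of cells with a UMI were thinned to 5000 UMIs per cell only where the text says so. Shares with Ptprc, another cell-type marker or Car9, and the main share of collagen-gated cells, were not thinned and depend on depth.

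The members and gene lists were chosen with earlier results of these data known, and the groups by Dcn, Msln, Car9, Acp5 and Ctsk, and T and NK markers after values were seen. Named with values are members with at least 50 CPM in collagen-gated cells and the 3 highest and 3 lowest ratios among members with at least 100 UMIs. Members whose share of collagen UMIs in macrophage-marker cells was at least 3 times that in collagen-gated cells are named too. So are list genes past 1.5-fold (up to 8 each way) and the 10 genes most correlated with 5 fibrillar chains. Col28a1, Col8a1 in macrophage-marker cells, the second chain of a pair and chains followed into other groups were added after their values were seen. The ratio step was tested on simulated counts. Python 3.11.15, numpy 2.4.6, scipy 1.17.1, pandas 2.3.3, matplotlib 3.10.9 and edgeR (TMM factors only) were used. Alternatives were other cell filters, gates, scalings and count minimums. Promoters came from RefSeq (GRCm38.p6) and gene positions from GENCODE vM21.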

Additional observations from a re-analysis of the deposited data

Results flagged for a closer look

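Of the members with at least 30 UMIs in both groups of cells, 4 had ratios between libraries on opposite sides of 1 in collagen-gated and macrophage-marker cells, with both counting intervals clear of 1 and at least 1 of the ratios past 1.5-fold. Col18a1 had a ratio of 0.897 in collagen-gated and 2.45 in macrophage-marker cells. Col4a5 had 0.884 and 2.85, Col8a1 0.901 and 1.86, and Col15a1 1.46 and 0.512. In macrophage-marker cells Col8a1 was, per Col3a1 UMI, at 0.900 and 1.70 times its proportion in collagen-gated cells, and background was not tested. The difference between the groups of cells was not tested, as each value compares 1 library with 1 library. Under TMM scaling the values in collagen-gated cells came closer to 1, at log2 ratios of -0.07 for Col18a1, -0.09 for Col4a5 and -0.07 for Col8a1. With their intervals scaled by the same factor, these would include 1, so Col18a1, Col4a5 and Col8a1 would not meet the rule. Col15a1 had a log2 ratio of -0.13 in collagen-gated cells with all deposited barcodes.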

How the results depend on the processing

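No paired analysis was possible because each group has 1 library. The difference in the share of collagen-gated cells, 4.23 percentage points, stayed positive in every setting. It was 4.41 with stricter cell filters, 2.70 with the gate at 50 UMIs, 2.66 with the gate at 5 UMIs in thinned cells, 3.61 without cells that met the macrophage-marker rule, 3.34 without cells with a Ptprc UMI and 3.83 without the 5% of cells with the most UMIs, the last chosen after seeing the data. In the same order, the log2 ratio of collagen CPM in collagen-gated cells, -0.12, was -0.10, -0.047, -0.0033, -0.091, -0.047 and -0.28. It was -0.15 with all deposited barcodes and -0.14 as the mean over cells. Members of collagen-gated cells past 1.5-fold on the higher side numbered 2, and 4 with the gate at 50 UMIs, without macrophage-marker cells, without Ptprc cells, with a count minimum of 10, with no filter and without the 5% of cells with the most UMIs, but 1 with a minimum of 100. On the lower side they numbered 1, against 3 with stricter cell filters and without the 5% of cells with the most UMIs, 2 with the gate at 50 UMIs, in thinned cells and as the mean over cells, and 6 with no filter. Synthesis genes on the lower side numbered 2, against 1 with the gate at 50 UMIs, in thinned cells and under TMM scaling, and 4 without Ptprc cells. In macrophage-marker cells the higher members numbered 5, against 3 as the mean over cells, with a minimum of 100 and without the 5% of cells with the most UMIs. The lower ones numbered 1, against 6 as the mean over cells and 2 with 1 UMI per marker, with a minimum of 10, with no filter and without the 5% of cells with the most UMIs. As the mean over cells, Col8a1 and Col11a2 there turned to log2 ratios of -0.024 and -0.38. Changed counts with other minimums follow from testing more or fewer genes, and the cause of the other changes was not tested. TMM scaling moved all log2 ratios by 0.08 in collagen-gated and 0.11 in macrophage-marker cells. Of the values for single members under the alternatives, 13 of 333 had the other sign, 2 of them for members past 1.5-fold. Among the 13 were Col3a1, Col1a2 and Col1a1 in collagen-gated cells with the thinned gate (log2 ratios of 0.02, 0.04 and 0.01), Col27a1 there without Ptprc cells (0.34) and Col1a1 in macrophage-marker cells under both scalings (0.03). Called members kept their direction in every alternative run for Col12a1 (log2 ratios of 1.09 to 1.94), Col18a1 (1.14 to 1.41), Col4a5 (1.46 to 1.62), Col6a6 (1.24 to 1.63) and Col15a1 (-1.29 to -0.86), the last 4 in macrophage-marker cells.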
